A study of Homo sapiens with 6 samples.

Results

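The genes described here are 10 members of the interleukin-1 (IL-1) system, taken by symbol from a table of 60748 genes: the cytokines IL1A, IL1B, IL18 and IL33, the receptor antagonist IL1RN, the receptor chains IL1R1, IL1RAP, IL1RL1 and IL18R1, and the protease CASP1. RNA was sequenced from LX-2, an established line of human hepatic stellate cells, the fibroblast-like cells that lie along the sinusoids of the liver. LX-2FAP cells (n = 3 libraries) stably overexpressed fibroblast activation protein α (FAPα, encoded by FAP) from a lentivirus, and LX-2Vector cells (n = 3) carried the matching lentiviral vector GV367 without that insert. Per the study's methods the vector also expressed EGFP and a puromycin resistance gene, and stable clones were selected with puromycin. Both groups thus shared the kind of infection, the reporter and the selection. LX-2FAP and LX-2Vector were separately infected and selected, so an effect of FAPα and any other difference between the lines cannot be told apart. Both were grown in DMEM with fetal bovine serum and harvested after 24 h. The labels do not say whether libraries came from separate cultures, so p-values measure only the spread between these libraries, which may be technical.

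IL-1α and IL-1β, the products of IL1A and IL1B, bind the receptor IL1R1, which then recruits the accessory chain IL1RAP and signals through MyD88 and IRAK kinases to NF-kB. IL-33 uses the same accessory chain with the receptor IL1RL1 (ST2), IL-18 binds IL18R1, and the antagonist encoded by IL1RN occupies IL1R1 without signaling. IL-1β and IL-18 are made as inactive precursors that caspase-1 cuts inside inflammasomes, whereas full-length IL-33 is a nuclear protein released from damaged cells, and in the liver these cytokines are known as mediators of inflammation and of stellate cell activation.

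FAP itself had 42 to 55 counts per LX-2Vector library and 14805 to 15160 counts per LX-2FAP library (edgeR log2 fold change 8.33, adjusted p = 4.47e-16), so the overexpressed gene followed the labels. Library totals ran from 17355700 to 26352060 counts. On the first principal component of all genes, LX-2FAP replicate 1 lay at 1.91 and the other LX-2FAP libraries at 25.4 and 17.01, against -20.7 to -11.6 for LX-2Vector, so that library stood nearest to the controls. Of 11 stellate cell markers 8 were measured well enough to test. VIM was called higher in LX-2FAP (2.57% over all tested genes) and PDGFRB, COL1A1 and COL3A1 lower (2.73% over all). The other 4 were scarce and not called, with LX-2Vector and LX-2FAP means of 3.82 and 2.94 CPM (normalized counts-per-million) for ACTA2. These means were 1.17 and 1.05 CPM for COL1A2, 1.90 and 1.37 for THY1, and 1.59 and 1.91 for HAND2. PDGFRA had 58 counts in all libraries together, DES had 4 and LRAT had none. Leukocyte markers were low, with PTPRC (CD45) at 5.39 and 5.35 normalized counts-per-million (CPM) in the control and FAPα cells, and summed levels of 10 myeloid markers overlapped between the groups (18.1 to 24.0 CPM against 19.7 to 23.9 CPM). None of the 8 myeloid markers tested passed the test. In bulk RNA, fewer cells that express a gene and less RNA per cell cannot be told apart.

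In LX-2FAP cells IL1B and IL33 rose, by 1.21-fold and 1.23-fold, and no other member passed the test. Of the 10 members, 9 had enough counts to be tested and IL1RN did not. The test called a gene at an adjusted p under 0.05 (edgeR quasi-likelihood test, Benjamini-Hochberg over all 18275 tested genes), which was met by 5.29% of tested genes (967), 2.57% of them higher in LX-2FAP (469) and 2.73% lower (498). Among the members 2 were higher, 0 were lower and 7 were not called. The split of calls over all genes depended on scaling: library size alone gave 239 higher and 809 lower, and the DESeq2 Wald test gave 747 higher and 342 lower. IL1B was higher and called under both, while IL33 was higher under both and called under the second of these. At an unadjusted p under 0.05, which 22.2% of tested genes met, 3 members passed (IL1B, IL33 and CASP1). The 3 libraries of each group did not overlap for 26.4% of tested genes, and for 3 members (IL1B, IL33 and IL1R1). Over the 9 tested members 4 log2 fold changes were positive and the median was -0.0024, beside a median of -0.01 over all tested genes.

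**Figure D1:**
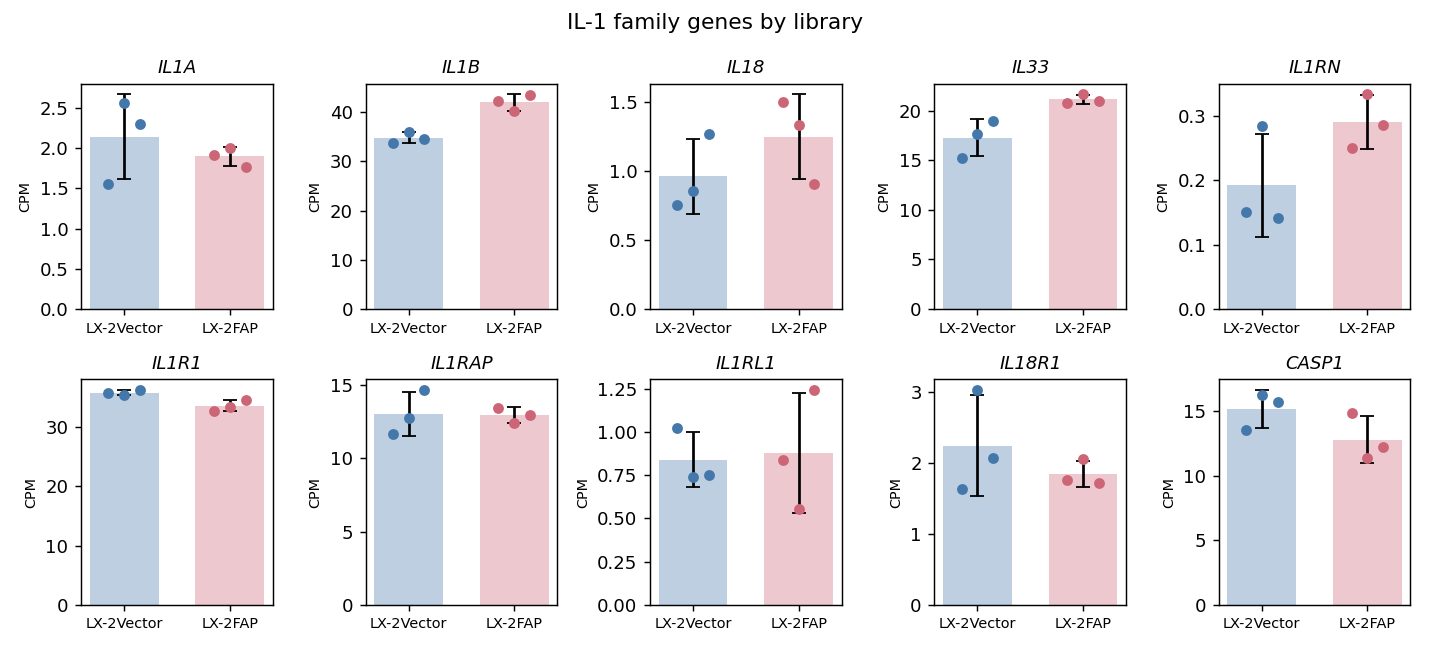
Normalized counts-per-million (CPM, y axis from 0 in each panel) of the 10 IL-1 system genes in each library of LX-2Vector (blue) and LX-2FAP (red), with bars at the mean and error bars of 1 SD (n = 3). The LX-2FAP libraries sit at 40.2 to 43.4 CPM for IL1B and 20.8 to 21.6 CPM for IL33, above every LX-2Vector library, and only IL1R1 among the other members shows groups that do not overlap.

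The sequences just upstream of the annotated starts are given for the called cytokine genes IL1B and IL33 and for IL1A, the gene next to IL1B. IL1A did not pass the test, but its interval includes a change as large as that of IL1B, so it is not a contrast to the called genes. Whether these sequences bear on the changes was not tested. They are the 250 bases before a RefSeq transcript start (GRCh38.p14), read 5′ to 3′ along the gene, with motif matches in capitals.
IL1B, chr2:112836780-112837029, minus strand: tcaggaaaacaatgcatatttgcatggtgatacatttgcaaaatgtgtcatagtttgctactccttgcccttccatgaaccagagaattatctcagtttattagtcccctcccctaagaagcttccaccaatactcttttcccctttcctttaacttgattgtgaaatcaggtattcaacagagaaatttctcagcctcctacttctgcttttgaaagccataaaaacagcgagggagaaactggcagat
IL33, chr9:6215557-6215806, plus strand: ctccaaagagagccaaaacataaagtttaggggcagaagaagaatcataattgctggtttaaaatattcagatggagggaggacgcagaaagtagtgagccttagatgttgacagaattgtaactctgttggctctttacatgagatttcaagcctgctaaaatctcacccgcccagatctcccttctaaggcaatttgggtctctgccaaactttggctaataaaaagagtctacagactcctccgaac
IL1A, chr2:112784494-112784743, minus strand: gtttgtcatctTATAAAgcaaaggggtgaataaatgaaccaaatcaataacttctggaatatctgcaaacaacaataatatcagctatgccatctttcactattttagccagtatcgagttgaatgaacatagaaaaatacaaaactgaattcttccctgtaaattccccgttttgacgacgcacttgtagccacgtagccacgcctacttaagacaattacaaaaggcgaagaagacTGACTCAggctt
The motifs searched on both strands were an AP-1 site (TGANTCA), an NF-kB site (10 letters, searched by its consensus) and a TATA box (TATAAA), which lay in 6.57%, 5.21% and 10.7% of 35116 windows of the same kind over all genes. The IL1B window and the IL33 window shown held none of the 3, and neither did the other IL33 window (chr9:6214899-6215148). In the IL1A window shown, TATAAA began at position -239 and an AP-1 match at position -12, counted from the start. A second IL1A window, set by another RefSeq start (chr2:112784401-112784650), overlapped the first. It held AP-1 letters at positions -105 and -55 counted from that start and no TATAAA. The match at -105 is the same stretch of bases as the match at -12 in the window shown. Windows were found for 8 of the 10 members (17 windows). AP-1 letters were in windows of 3 of them (IL1A, IL1RN and IL1RL1), TATA letters in windows of 4 (those 3 and IL1R1), and NF-kB letters in windows of 0. These counts are per gene, and a gene can have several windows. The shares over all genes given above are per window, so the counts cannot be set against them directly. A match is a run of letters and not a measured binding site. GENCODE release 29 places 2 further transcript starts inside the IL1B window and 1 inside each of the other windows shown.

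Most members lie in gene clusters of chromosome 2. By GENCODE release 29 on GRCh38, IL1A (chr2:112773915-112784590, minus strand) and IL1B (chr2:112829751-112836903, minus strand) are separated by 45.2 kb, and IL1RN (chr2:113107214-113134016, plus strand) lies in the same cluster beyond the IL-36 and IL-37 genes. IL1R1 (chr2:102064544-102179874), IL1RL1 (chr2:102311502-102352037) and IL18R1 (chr2:102311529-102398775) stand on the plus strand in a receptor cluster. IL33 is on chromosome 9 (chr9:6215786-6257983, plus strand), IL1RAP on chromosome 3 (chr3:190514051-190659750, plus strand), and IL18 (chr11:112143251-112164117) and CASP1 (chr11:105025443-105035250) on the minus strand of chromosome 11. All 10 are protein coding. IL1RL1 and IL18R1 share 95 exon bases on the same strand, 1.65% of the exon bases of IL1RL1 and 2.18% of those of IL18R1, so a small share of their reads could not be assigned to 1 gene. IL1RAP shares 4.63% of its exon bases with the noncoding gene AC108747.1.

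IL1B, encoding the secreted cytokine IL-1β, was the most abundant member per gene length. It had 894, 632 and 735 counts in LX-2Vector replicates 1, 2 and 3, which after normalization were 33.8, 36.01 and 34.6 CPM. The LX-2FAP replicates had 1014, 723 and 910 counts, or 42.3, 40.2 and 43.4 CPM. Every LX-2FAP library lay above every LX-2Vector library. The mean rose from 34.8 ± 1.11 to 41.98 ± 1.65 CPM (SD, n = 3 each), a log2 fold change of 0.27 (SE 0.06, 95% confidence interval 0.15 to 0.39, edgeR adjusted p = 0.0152), or 1.21-fold (1.11 to 1.31). Without LX-2FAP replicate 3 the change was 0.25 on the log2 scale with an edgeR adjusted p of 0.125, and each of the other 5 fits that left out a library kept the call. In FPKM (fragments scaled by gene length and library size), tested with limma-trend, the same change was 0.22 to 0.24 on the log2 scale with adjusted p = 0.112 to 0.113 for IL1B, and that test called 2 genes in the whole table.

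IL33, the gene of the nuclear alarmin IL-33, showed a change of similar size with a wider spread in the controls. The LX-2Vector replicates 1, 2 and 3 had 403, 310 and 402 counts (15.3, 17.7 and 18.9 CPM). The LX-2FAP replicates had 498, 389 and 440 counts (20.8, 21.6 and 21.0 CPM). The groups did not overlap, and the LX-2FAP libraries varied with an SD of 0.440 CPM, while LX-2Vector replicate 1 was the lowest of the 6. The mean rose from 17.3 ± 1.85 to 21.1 ± 0.440 CPM (SD, n = 3 each), a log2 fold change of 0.30 (SE 0.08, 95% interval 0.12 to 0.47, edgeR adjusted p = 0.0471), or 1.23-fold (1.09 to 1.39). This call stood close to the threshold. It was lost without LX-2Vector replicate 1 (edgeR log2 fold change 0.21, adjusted p = 0.148), LX-2Vector replicate 2 (0.32, adjusted p = 0.0753), LX-2FAP replicate 2 (0.28, adjusted p = 0.154) or LX-2FAP replicate 3 (0.30, adjusted p = 0.177), with library size alone (0.27, adjusted p = 0.0658), and on the FPKM scale (0.23 to 0.26, limma adjusted p = 0.152 to 0.156), always in the same direction.

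IL1A, whose product IL-1α acts on the same receptor as IL-1β, was a low-count gene with 41, 45 and 49 counts in LX-2Vector and 46, 36 and 37 counts in LX-2FAP. On the CPM scale these were 1.55, 2.56 and 2.30 against 1.92, 2.00 and 1.77, so the LX-2FAP values fell inside the LX-2Vector range. The log2 fold change was -0.14 (95% interval -0.57 to 0.29, edgeR adjusted p = 0.745), and a change as large as that of IL1B lies inside this interval.

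IL18, encoding the caspase-1 substrate IL-18, had 20, 15 and 27 counts in LX-2Vector (0.757, 0.855 and 1.27 CPM) and 36, 24 and 19 in LX-2FAP (1.502, 1.33 and 0.907 CPM). LX-2FAP replicates 1 and 2 were above all controls and replicate 3 was within them. The log2 fold change was 0.40 with a 95% interval from -0.17 to 0.96 (edgeR adjusted p = 0.42), so at 15 to 36 counts per library no difference was detectable. It was 0.22 when either LX-2FAP replicate 1 or LX-2Vector replicate 1 was left out, 0.66 without LX-2Vector replicate 3 and 0.58 when LX-2FAP replicate 3 was dropped, and was uncalled in each fit that left out a library.

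IL1RN, the gene of the IL-1 receptor antagonist, was almost silent. It had 4, 5 and 3 counts in LX-2Vector (0.151, 0.285 and 0.141 CPM) and 6 in each LX-2FAP library (0.250, 0.334 and 0.286 CPM). The groups overlapped through LX-2Vector replicate 2. The gene failed the filter on low counts, and in a fit of all genes with a count its log2 fold change was 0.62 (95% interval -0.45 to 1.69, edgeR adjusted p = 0.717). Its counts stood at or little above a floor of 3 counts, which corresponds to 0.114 to 0.171 CPM depending on the library and covers counting error only.

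Among the receptors, IL1R1, the signaling receptor of IL-1α and IL-1β, had 944, 622 and 771 counts in LX-2Vector and 786, 602 and 726 in LX-2FAP. These were 35.7, 35.4 and 36.2 CPM against 32.8, 33.5 and 34.7 CPM. All LX-2FAP libraries were below all LX-2Vector libraries, with means of 33.6 ± 0.944 and 35.8 ± 0.408 CPM (SD, n = 3 each), but the gene was not called: the log2 fold change was -0.09 (95% interval -0.21 to 0.03, edgeR adjusted p = 0.365) and no fit that left out a library called it.

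IL1RAP, the accessory chain shared by the IL-1 and IL-33 receptors, had 309, 224 and 312 counts in LX-2Vector (11.7, 12.8 and 14.7 CPM) and 323, 223 and 272 in LX-2FAP (13.5, 12.4 and 13.0 CPM). The LX-2FAP values lay inside the control range. Its log2 fold change was -0.0024 with a 95% interval from -0.20 to 0.20 (edgeR adjusted p = 0.992). The fold changes estimated for IL1B and IL33 lie outside this interval, but their own intervals overlap it, and a difference between genes was not tested.

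IL1RL1, the ST2 receptor of IL-33, had 27, 13 and 16 counts in LX-2Vector (1.02, 0.741 and 0.752 CPM). The LX-2FAP libraries had 20, 10 and 26 (0.834, 0.556 and 1.24 CPM). LX-2FAP replicates 2 and 3 were the lowest and the highest of all 6 libraries. The log2 fold change of 0.05 had a 95% interval from -0.58 to 0.68 (edgeR adjusted p = 0.944), too wide to place it near or far from that of its ligand. IL18R1, which binds IL-18, had 43, 53 and 44 counts in LX-2Vector (1.63, 3.02 and 2.07 CPM) and 42, 37 and 36 in LX-2FAP (1.75, 2.06 and 1.72 CPM). The groups overlapped, with LX-2Vector replicate 2 the highest library, and the log2 fold change was -0.24 (95% interval -0.71 to 0.22, edgeR adjusted p = 0.566).

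CASP1, the protease that processes IL-1β and IL-18, had 358, 286 and 335 counts in LX-2Vector (13.6, 16.3 and 15.8 CPM) and 356, 205 and 256 in LX-2FAP (14.9, 11.4 and 12.2 CPM). LX-2FAP replicate 1 lay among the controls, and LX-2FAP replicates 2 and 3 lay below them. The means were 15.2 ± 1.45 and 12.8 ± 1.80 CPM (SD, n = 3 each), with a log2 fold change of -0.23 (SE 0.10, 95% interval -0.45 to -0.01, edgeR adjusted p = 0.21). Without LX-2FAP replicate 1, the library nearest to the controls over all genes, CASP1 was called lower (edgeR log2 fold change -0.35, adjusted p = 0.0377), and no other fit that left out a library called it. The fit without LX-2FAP replicate 1 called 1949 genes in the whole table, against 967 with all libraries. In these transcripts 1.16% of the 100-base words of CASP1 also occur in CARD16, its neighbor on chromosome 11, whose level is given below.

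**Figure D2:**
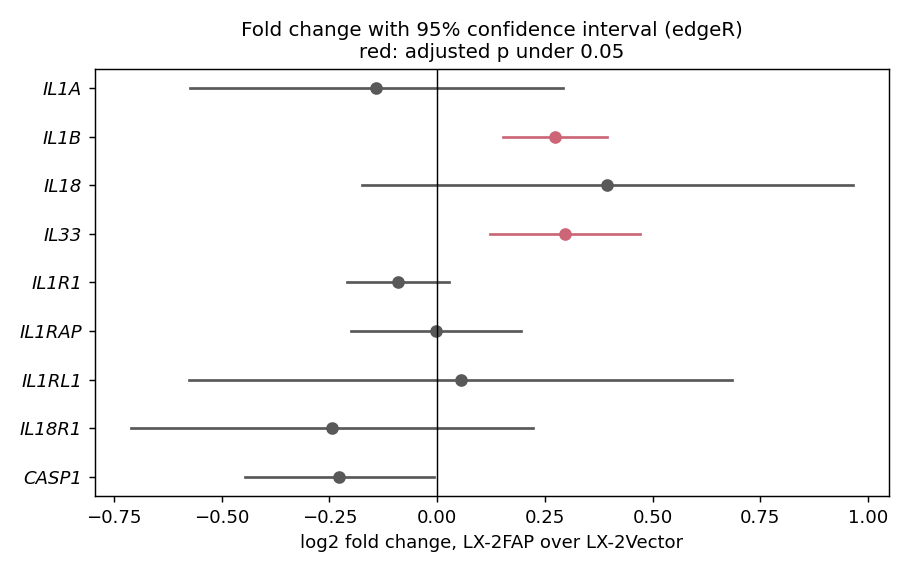
Log2 fold change of LX-2FAP over LX-2Vector (x axis) for the 9 tested members, as points with 95% confidence intervals from edgeR, in red where the adjusted p was under 0.05. Only the intervals of IL1B (0.15 to 0.39) and IL33 (0.12 to 0.47) belong to called genes, and those of IL18, IL1RL1, IL18R1 and IL1A are the widest.

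Levels can be ranked between genes in FPKM, which divides by gene length. The length used was close or equal to all annotated exon bases of a gene, such as 11558 bases over 19 transcripts for IL1RAP. It is not the length of the transcript expressed, so ranks and ratios between genes are approximate. In LX-2Vector IL1B stood first at 11.7 ± 0.417 FPKM, followed by IL33 at 5.35 ± 0.594 and IL1R1 at 5.07 ± 0.0617, whose libraries overlapped (SD, n = 3 each). CASP1 came next at 4.14 ± 0.414 FPKM, below every library of IL1R1. IL1RAP at 1.14 ± 0.135 and IL1A at 1.07 ± 0.267 FPKM overlapped, as did IL18R1 at 0.502 ± 0.161 and IL18 at 0.372 ± 0.106 FPKM. IL1RL1 at 0.147 ± 0.0272 and IL1RN at 0.0599 ± 0.0252 FPKM were last. LX-2FAP means were 13.8 ± 0.549 for IL1B, 6.42 ± 0.123 for IL33, 4.67 ± 0.123 for IL1R1 and 3.43 ± 0.491 FPKM for CASP1.

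**Figure D3:**
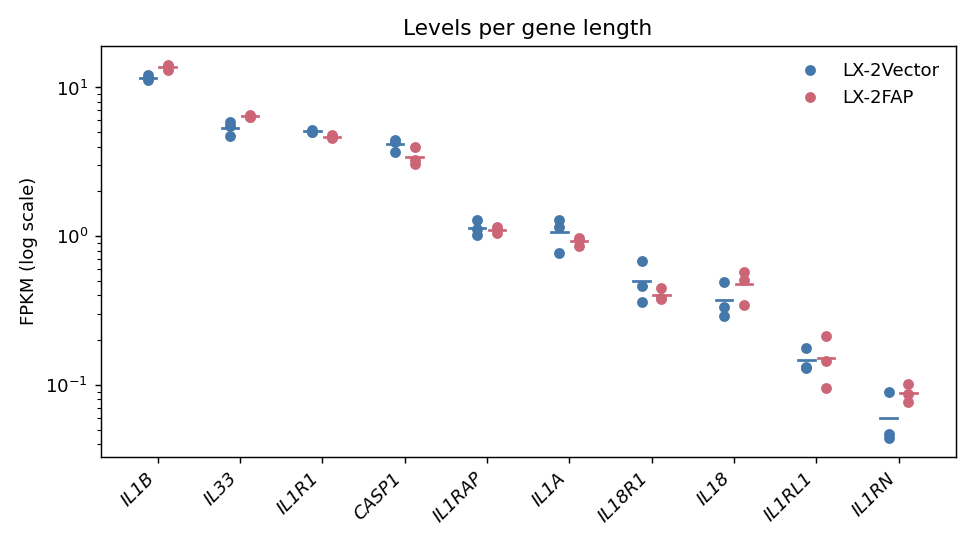
FPKM (log scale) of the 10 members in each library of LX-2Vector (blue) and LX-2FAP (red), ordered by the LX-2Vector mean, with a line at each mean. The members run from 11.7 FPKM for IL1B to 0.0599 FPKM for IL1RN in LX-2Vector, a wider spread than any difference between the groups.

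The cytokine makeup stayed close between groups. IL1B made up 63.3% ± 2.75 of the summed FPKM of IL1A, IL1B, IL18 and IL33 in LX-2Vector and 63.8% ± 1.60 in LX-2FAP, and IL33 made up 28.96% ± 1.59 and 29.7% ± 1.03 (SD, n = 3 each). IL1A took 5.75% ± 1.11 and 4.30% ± 0.328, and IL18 2.00% ± 0.495 and 2.19% ± 0.549. The FPKM of IL1B over IL33 was 2.40, 2.20 and 1.98 in the LX-2Vector libraries and 2.20, 2.01 and 2.24 in the LX-2FAP libraries, which overlapped. IL1B stood 136 to 264 times above the antagonist IL1RN in LX-2Vector and 130 to 182 times in LX-2FAP, a ratio whose denominator rests on 3 to 6 counts per library. The receptor IL1R1 stood 4.01 to 4.96 times above its accessory chain IL1RAP in LX-2Vector and 3.95 to 4.38 times in LX-2FAP.

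Over the 6 libraries the genes whose log2 CPM was most like that of IL1B, among 11555 tested genes averaging 100 or more counts, were APC (Pearson r = 0.998), ZBTB41 (0.997) and RESF1 (0.992), and 599 genes had r over 0.9. For IL33 they were ARID4A (0.997), MARCHF7 (0.993) and ELOVL7 (0.988), with 508 genes over 0.9. These are descriptions over libraries that also share the group difference.

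The other genes of the IL-1 family were mostly undetected or scarce. Of 13 listed, 3 passed the filter and none was called by edgeR: IL18BP, the soluble antagonist of IL-18, IL37, an anti-inflammatory family member, and SIGIRR, an inhibitory receptor. At an unadjusted p under 0.05, 1 of the 3 passed, and DESeq2 called 0 of them. IL18BP was at 10.5, 9.57 and 10.2 CPM in the LX-2Vector libraries and 9.51, 7.06 and 7.54 CPM in the others, with every LX-2FAP library below every control (edgeR log2 fold change -0.32, adjusted p = 0.102). IL18BP was called lower without LX-2FAP replicate 1, in a fit that called 1949 genes in the whole table against 967 with all libraries. SIGIRR had means of 10.5 ± 1.41 and 9.25 ± 0.713 CPM and IL37 of 1.12 ± 0.194 and 1.18 ± 0.216 CPM in LX-2Vector and LX-2FAP. The decoy receptor IL1R2 had 52 counts in all 6 libraries together, the IL-18 accessory chain IL18RAP 38, IL36G 27, IL36RN 16, IL36A 6, IL36B 3 and their receptor IL1RL2 3, and IL1F10 and IL1RAPL2 had none.

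Most genes that assemble inflammasomes or cut IL-1 family precursors did not pass the test. Of 21 listed, 15 were tested, 2 were called higher (2.57% over all tested genes), 1 lower (2.73% over all) and 12 were not called, with a median log2 fold change of 0.02. At an unadjusted p under 0.05, 5 passed, beside 22.2% over all tested genes. NEK7, the kinase that binds NLRP3 during its activation, rose from 202, 224 and 226 CPM in LX-2Vector to 252, 276 and 275 CPM with no overlap (edgeR log2 fold change 0.30 with SE 0.05, adjusted p = 0.00765), and lost the call only without LX-2FAP replicate 3 (0.28, adjusted p = 0.0748) among the fits that left out a library. CAPN2, a calpain subunit of a protease family known to cut the IL-1α precursor, rose from 586 ± 12.5 to 652 ± 12.5 CPM (edgeR log2 fold change 0.15, adjusted p = 0.0269). CARD16, a decoy of the caspase-1 recruitment domain, fell from 7.49, 6.72 and 7.33 CPM to 5.76, 4.34 and 3.77 CPM (edgeR log2 fold change -0.63 with SE 0.14, adjusted p = 0.0202). The call of CAPN2 was lost without LX-2Vector replicate 2 (edgeR adjusted p = 0.0592) or 3 (0.0787) and without LX-2FAP replicate 2 (0.121) or 3 (0.163), with log2 fold changes of 0.15 to 0.16, and with library size alone (0.13, adjusted p = 0.0535). That of CARD16 was lost without LX-2Vector replicate 1 (edgeR log2 fold change -0.59, adjusted p = 0.0739), LX-2FAP replicate 2 (-0.58, 0.0867) or LX-2FAP replicate 3 (-0.49, 0.144).

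Sensors and adaptors of the same list did not pass the test. NLRP3, the inflammasome sensor, had 14.9 ± 0.741 and 16.5 ± 0.344 CPM in LX-2Vector and LX-2FAP, without overlap (edgeR log2 fold change 0.14, adjusted p = 0.286). PYCARD, the adaptor ASC that joins sensors to caspase-1, had only 6 to 17 counts per library and levels of 0.643, 0.798 and 0.705 CPM against 0.375, 0.334 and 0.430 CPM (log2 fold change -0.88, 95% interval -1.54 to -0.22, edgeR adjusted p = 0.106). CASP4, an inflammatory caspase in the same gene cluster as CASP1 on chromosome 11, had 108 ± 4.29 and 116 ± 1.79 CPM (edgeR adjusted p = 0.194). GSDMD, the pore protein that such caspases release, had 23.5 ± 1.71 and 21.4 ± 1.08 CPM (edgeR adjusted p = 0.288).

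All 14 genes of proximal IL-1 receptor signaling were tested, and none was called in the reported edgeR fit. At an unadjusted p under 0.05, 4 passed, where 22.2% of all tested genes did. Their median log2 fold change was 0.03, with 8 positive. The adaptor MYD88 averaged 36.8 ± 1.05 CPM in the controls against 33.7 ± 0.647 CPM (edgeR log2 fold change -0.13, adjusted p = 0.184). TAB1, which binds the kinase TAK1, had a log2 fold change of -0.21 (adjusted p = 0.0605) and CHUK, encoding the kinase IKKα, one of 0.16 (adjusted p = 0.0767) in edgeR. CHUK was called higher by the DESeq2 Wald test, by edgeR with no filter on low counts (adjusted p = 0.0441) and by edgeR without LX-2FAP replicate 1. Over all genes these fits called 1089, 1606 and 1949, against 967 in the reported fit. TAB1 was called lower by edgeR with library size alone.

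Among genes commonly induced by IL-1, SOD2, ICAM1, NFKBIA and ZC3H12A fell in LX-2FAP and MMP3 rose. Of 19 listed, 17 were tested, 4 were called lower (2.73% over all tested genes), 1 was called higher (2.57% over all) and 12 were not called. At an unadjusted p under 0.05, 10 of the 17 passed, beside 22.2% over all tested genes. The median log2 fold change was -0.28 with 2 of 17 positive, beside 47.0% positive over all tested genes. Genes of a list can vary together between libraries, so the 17 signs are not independent. This list, like the others, was chosen with earlier results of these data known, so the shares are a description and not a test of the list. Summed levels of the 19 listed genes overlapped between the groups (977 to 1260 CPM in LX-2Vector and 823 to 995 CPM in LX-2FAP). SOD2, the mitochondrial superoxide dismutase, fell from 448, 494 and 583 CPM to 422, 331 and 354 CPM (edgeR log2 fold change -0.46 with SE 0.09, adjusted p = 0.00957). ICAM1, a leukocyte adhesion molecule, fell from 25.5, 24.0 and 29.7 CPM to 21.6, 16.5 and 15.6 CPM (edgeR log2 fold change -0.55 with SE 0.11, adjusted p = 0.0122). NFKBIA, the NF-kB inhibitor IκBα, fell from 72.6, 76.6 and 82.6 CPM to 68.4, 51.5 and 53.2 CPM (edgeR log2 fold change -0.41 with SE 0.08, adjusted p = 0.0142). In these 3 genes the groups did not overlap, and of the LX-2FAP libraries replicate 1 had the value closest to the control range. ZC3H12A, an RNase that destroys cytokine mRNAs, fell from 20.6 ± 0.536 to 16.4 ± 1.29 CPM (edgeR log2 fold change -0.33, adjusted p = 0.0246). MMP3, the matrix metalloproteinase stromelysin-1, was the gene called higher, with 13.7, 14.6 and 14.6 CPM against 14.8, 22.9 and 20.7 CPM (edgeR log2 fold change 0.43, adjusted p = 0.0498). The chemokine CXCL8 had 141 ± 28.6 and 134 ± 12.1 CPM, CXCL1 28.9 ± 2.24 and 28.9 ± 3.18 CPM and IL6 3.08 ± 0.584 and 2.18 ± 0.589 CPM, and none of these was called (edgeR adjusted p = 0.751, 0.964 and 0.198).

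Several of these calls were lost when a single library was left out. Without LX-2FAP replicate 3 edgeR called 26 genes in the whole table, against 967 with all libraries, and none of the 8 called pathway genes passed. In that fit 15 pathway genes had an unadjusted p under 0.05. There SOD2 and ICAM1 had log2 fold changes of -0.43 and -0.46 (edgeR adjusted p = 0.0748 and 0.0978) and NFKBIA one of -0.36 (0.108). Without LX-2FAP replicate 2 the calls of ICAM1 (edgeR log2 fold change -0.50, adjusted p = 0.0615) and NFKBIA (-0.34, 0.0707) were lost as well. ZC3H12A was called without LX-2FAP replicate 1 and in none of the other 5 such fits (-0.33 to -0.29, edgeR adjusted p = 0.051 to 0.154), and MMP3 behaved likewise (0.31 to 0.46, edgeR adjusted p = 0.0787 to 0.225). The fit without LX-2FAP replicate 1 called 1949 genes in the whole table. MMP3 also lost the call with library size alone (0.40, adjusted p = 0.0579). All of these changes kept their direction.

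**Figure D4:**
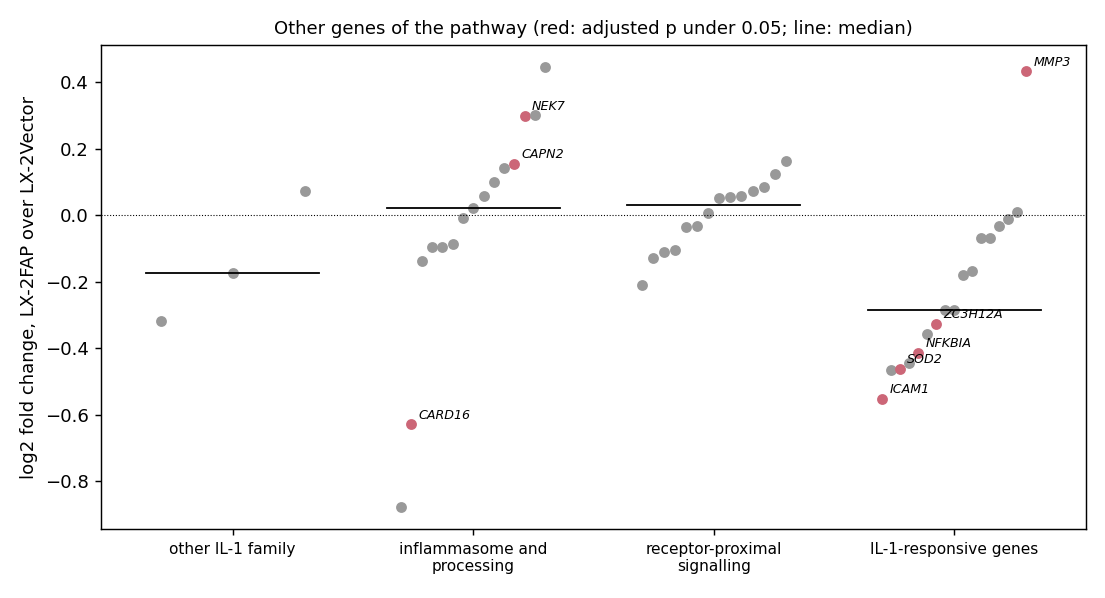
Log2 fold change of LX-2FAP over LX-2Vector (y axis) for each tested gene of 4 lists around the IL-1 system, sorted within a list, with a line at the list's median and red points where the edgeR adjusted p was under 0.05. The 14 receptor-proximal genes hold no red point, and the IL-1-responsive genes have 4 red points below 0 and 1, MMP3, above it.

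**Figure D5:**
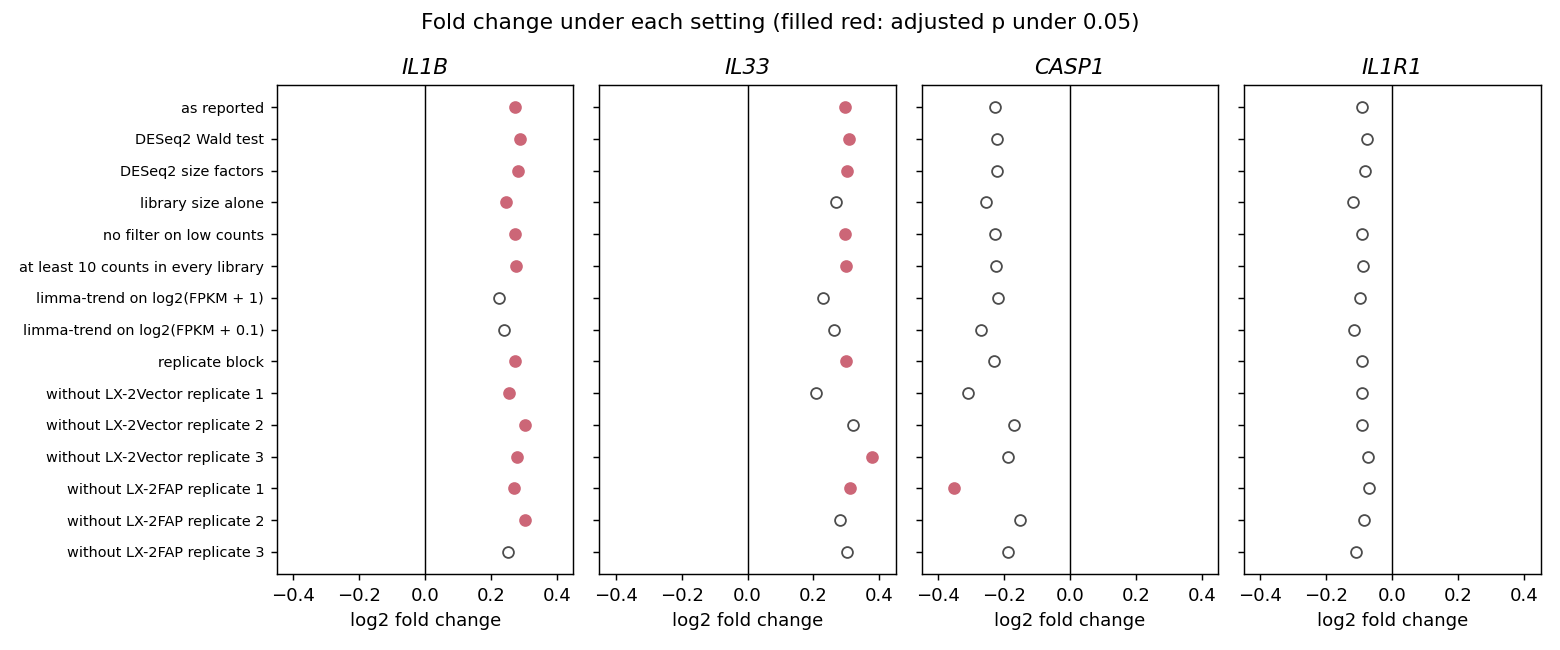
Log2 fold change (x axis) of IL1B, IL33, CASP1 and IL1R1 under the reported setting and 14 alternatives (y axis), filled red where the adjusted p was under 0.05. IL1B stays between 0.22 and 0.30 and IL33 between 0.21 and 0.38, all above 0, while CASP1 (-0.35 to -0.15) and IL1R1 (-0.12 to -0.07) stay below 0 and CASP1 is filled only without LX-2FAP replicate 1.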

How the data were processed

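RNA sequencing of 6 libraries was analysed from 1 deposited table. Per the submitters' processing notes, reads were aligned with HISAT2 2.0.5 and counted with featureCounts 1.5.0-p3. Those notes name build hg18, while the table has no coordinates, so positions here are from GENCODE release 29 (GRCh38). The labels name rRNA-depleted RNA, and the study's methods name both rRNA depletion and poly(A) selection. Use of strand in counting is not given in the sources used here. The authors deposited whole-number counts per gene, not normalized, and FPKM values that they computed from count and gene length.

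The main test was glmQLFTest of edgeR 4.0.16 in R 4.3.3 (TMM, trended dispersion, default filter with a minimum count of 10 and a minimum total of 15), checked on simulated data. Tests were 2-sided. CPM are counts divided by effective library size. An exact permutation test of 3 against 3 cannot give a p below 0.1. Groups came from sample titles.

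Alternatives were DESeq2 1.42.0, its size factors, library size alone, other count filters, limma 3.58.1 with a trend on log2 FPKM (pseudocount 1 or 0.1), a replicate block, and each library left out. The members and lists were chosen with earlier results of these data known. Named are all members, FAP, called genes of the lists with up to 4 others per list, and the 3 genes most like each called member. CASP4 and GSDMD and the genes of the other IL-1 family with few counts were named after their values were seen. RGS5, listed under 2 identifiers, was left out of the stellate markers. Marker sums for other lists were, in LX-2Vector and LX-2FAP, 11.9 to 13.5 and 8.67 to 11.5 CPM (endothelial), 1.02 to 1.82 and 0.584 to 1.06 CPM (hepatocyte), 284.5 to 285.4 and 253 to 280.5 CPM (epithelial) and 2.04 to 2.28 and 1.38 to 1.58 CPM (T and NK cells), and of these lists only VWF (endothelial) was called, lower in LX-2FAP. No pair of replicates matched within sampling noise (chi-square over its degrees of freedom, 2.02 to 4.99).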

Additional observations from a re-analysis of the deposited data

How the results depend on the processing

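IL1B kept its direction under all 14 alternatives and lost its call under 3, IL33 kept its direction and lost its call under 7, and CASP1 gained one under 1. FAP stayed between 6.27 and 8.45 on the log2 scale. Calls over all genes (967, with 469 higher and 498 lower) became 1606 with no filter (929 lower), 239 higher and 809 lower with library size alone, and 747 higher with DESeq2. Both limma-trend fits on FPKM called 2 genes, 1 higher and 1 lower, with 3638 to 3662 genes at an unadjusted p under 0.05. They called 0 members (2 and 3 unadjusted) and 0 pathway genes (19 unadjusted), and library size alone called 1 member. Fits without 1 library, which have fewer samples, called 26 genes (without LX-2FAP replicate 3) to 1949 (without LX-2FAP replicate 1), 14 to 892 of them higher and 12 to 1057 lower, with 0 to 3 members and 0 to 12 pathway genes. Why single libraries moved the counts was not tested. The replicate block gave 975 calls, 2 members and 8 pathway genes. Same-numbered libraries did not deviate together (correlations -0.039, 0.044 and -0.0096), so the numbers were not taken as pairs. No library correlated best with the library of its own number in the other group. Near 0, uncalled members changed sign: IL1A (-0.36 to 0.0032) and IL18R1 (-0.45 to 0.0080) without 1 library, IL1RAP to 0.0074 with DESeq2, 0.0043 with its size factors and -0.084 to 0.10 without 1 library, and IL1RL1 from -0.26 to 0.26 without 1 library. DESeq2 gave no adjusted p for IL1A, IL18, IL1RL1, IL18R1 and CARD16. Counts of 10 to 53 per library limit IL1A, IL18, IL1RL1 and IL18R1, and IL1RN is at the floor.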
